A study of Rattus norvegicus and Mus musculus with 34 samples.

Results

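The genes described here are 10 receptors with which macrophages and other myeloid cells bind antibody-coated particles, dying cells and lipids: the Fc gamma receptors Fcgr1, Fcgr2b, Fcgr3 and Fcgr4, their signalling chain Fcer1g, the integrin chain Itgam (CD11b), the scavenger receptors Cd36 and Marco, and the receptor tyrosine kinases Mertk and Axl. They were taken by name. All 10 were among the 51912 genes of the mouse table, and 7 were among the 20022 genes of the rat tables. The other 3 are named differently in the rat: RefSeq gives Fcgr1 as a synonym of rat Fcgr1a, Fcgr3 of Fcgr2a and Fcgr4 of Fcgr3a, and these 3 counterparts are described beside the members. In the rat experiment, a bone defect was made on the buccal side of the mandible at the molars of wild-type male Sprague-Dawley rats aged 6 to 8 weeks. The inferior alveolar nerve was left intact (sensory nerve+) or a segment of it was removed (sensory nerve−), and RNA of the whole healing tissue, labelled as mixed cells, was sequenced at day 3, 7 or 14. Each group held 4 rats, apart from sensory nerve+ at day 3 with 3, which makes 23 rats, and every rat carried the defect, so that no uninjured tissue was compared. In the cell experiment, RAW264.7 cells, a mouse macrophage line that is a single transformed line, received 100 ng/ml LPS for 6 h, either alone (6 samples) or together with 10 nM CGRP, the calcitonin gene-related peptide of sensory nerves (5 samples). Unstimulated cells were not analysed here.

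Fc gamma receptors bind the constant part of IgG. The activating ones signal through the ITAM of the shared gamma chain Fcer1g, which recruits Syk, whereas Fcgr2b carries an ITIM of its own that recruits the phosphatase Inpp5d and restrains them. Itgam pairs with Itgb2 to form complement receptor 3, Cd36 and Marco bind modified lipids and bacteria, and Mertk and Axl recognise phosphatidylserine on dying cells through bridging ligands such as Gas6. In healing wounds these receptors are best known from macrophages, which clear debris and spent neutrophils, but Fcer1g and Itgam are also carried by neutrophils, and Axl and Cd36 by stromal and vascular cells.

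The rat libraries held 14854389 to 18742274 counts and the macrophage samples 55614185 to 71538840 reads over 2 runs each. No 2 samples of a group agreed within sampling noise, since the chi-square per degree of freedom was 54.6 or more between rats and 2.78 or more between macrophage samples. The labels do not say whether the macrophage samples came from separate cultures, so that their p-values measure only the spread between these samples. All 12 macrophage markers were detected in every rat group, and their summed level ran from 2267 to 13690 CPM (a gene's counts scaled to the size of the library). In the tissue, less RNA of a receptor per cell and fewer cells that carry it cannot be told apart. The day 7 sensory nerve− rats come from a table of their own, so that a difference between the tables and the effect of transection cannot be told apart at that day. Nor can time and table be told apart when day 7 is compared with day 3 or day 14 in sensory nerve− rats.

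From day 3 to day 14 Mertk fell past edgeR's threshold in both arms, and Itgam and Axl passed it in sensory nerve− rats only. The estimates of Itgam were alike in the arms, with log2 fold changes of -1.36 without and -1.37 with the nerve. Fcer1g and the Fc receptors passed the threshold in neither arm. In sensory nerve− rats, 3 of the 6 members tested were lower at day 14 than at day 3 and none was higher, at an adjusted p under 0.05 in edgeR's quasi-likelihood test, against 23.5% of all genes called in either direction and 14.6% called lower. With the nerve intact 1 of 6 was called, also lower, against 5.78% of all genes in either direction and 3.09% lower. The median log2 fold change of the 6 tested members was -1.18 in sensory nerve− rats, where that of all genes was -0.05, and -1.02 in sensory nerve+ rats, where that of all genes was 0.00. Marco did not pass the filter on low counts in any rat comparison.

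**Figure D1:**
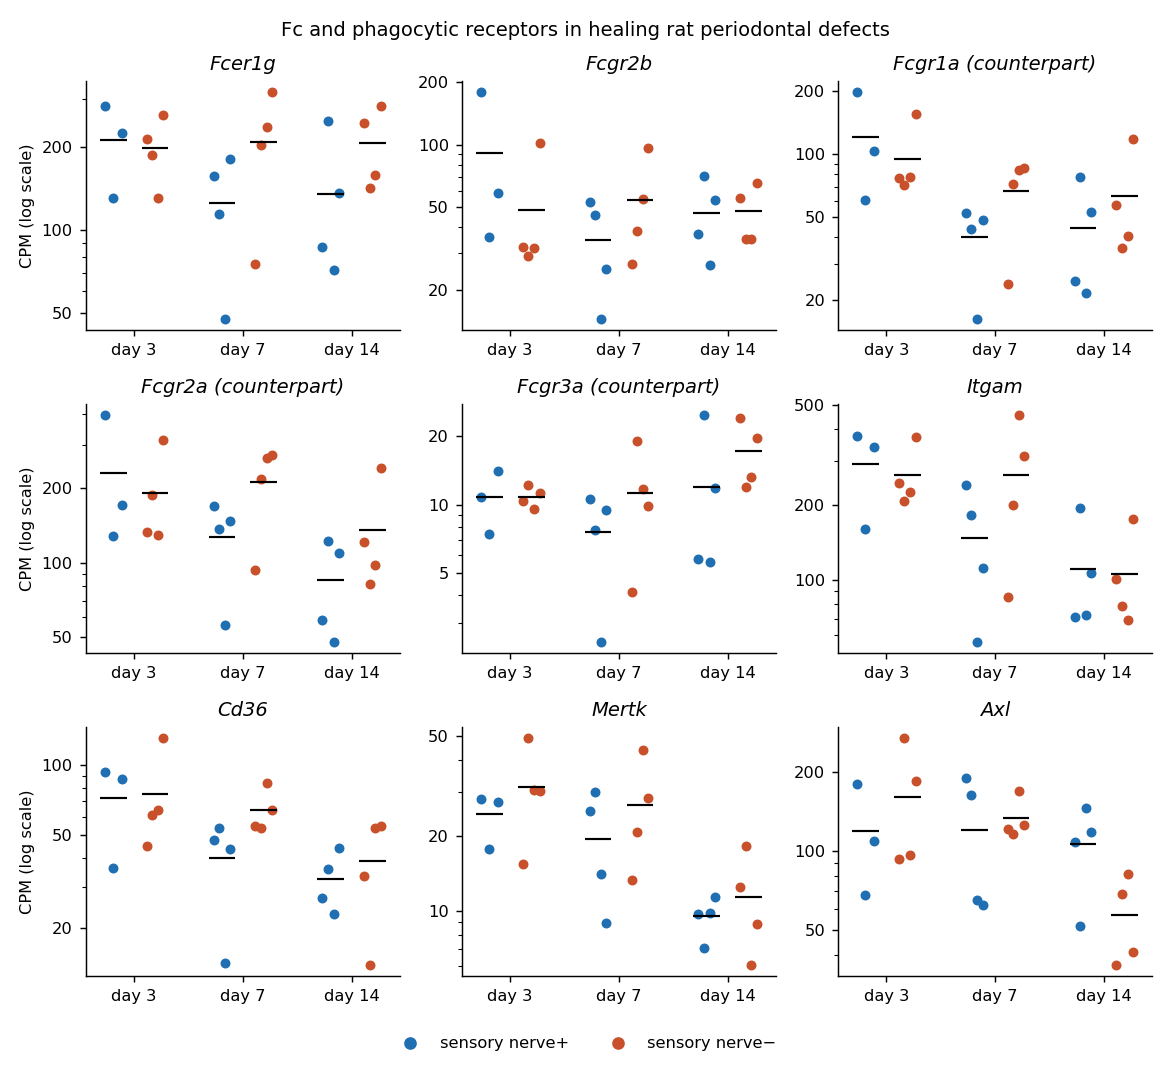
Level of each receptor in CPM (y axis, log scale) at day 3, 7 and 14 in sensory nerve+ (blue) and sensory nerve− (orange) rats. Each point is 1 rat and each bar the group mean. Itgam at day 14 in sensory nerve− rats ran from 69.2 to 176 CPM, below the 207 to 374 CPM of day 3, whereas Fcer1g ran from 142 to 284 CPM at day 14 and from 131 to 263 CPM at day 3.

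Itgam, the alpha chain of complement receptor 3, stood at 244.5, 207, 224.5 and 374 CPM in the sensory nerve− rats at day 3 and at 101, 78.5, 69.2 and 175.5 CPM at day 14. Every rat of day 14 was below every rat of day 3. The level fell by 1.36 on the log2 scale (SE 0.32, adjusted p = 0.0215), from a mean of 262.5 ± 75.9 (SD, n = 4) to 106 ± 48.2 CPM (SD, n = 4). Leaving out replicate 1 or 4 of day 3 or replicate 1 of day 14 ended this call (adjusted p = 0.0594, 0.0521 and 0.0526), as did 1 fit of all rats (adjusted p = 0.0571). The sensory nerve+ rats had day 3 values of 377, 160.2 and 339 CPM and day 14 values of 71.0, 193, 72.2 and 107 CPM. One day 14 rat of this group lay above the lowest day 3 rat, and the log2 fold change of -1.37 (SE 0.44) had an adjusted p of 0.0985, or of 0.0249 without the highest day 14 rat (replicate 2). Leaving out that rat raised the share of all genes called from 5.78% to 21.0%. DESeq2 called Itgam lower with the nerve as well (adjusted p = 0.0269), where it called 17.8% of all genes. For Itgam, edgeR's interaction of transection and day gave an unadjusted p of 0.315 and an adjusted p of 0.998. Its partner chain Itgb2, chosen here after its values were seen, had log2 fold changes of -0.02 (adjusted p = 0.97) and -0.43 (adjusted p = 0.561) in the same comparisons.

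Mertk, which drives the uptake of dying cells by resident and wound macrophages, stood at 28.1, 17.7 and 27.3 CPM in sensory nerve+ rats at day 3 and at 9.72, 7.10, 9.76 and 11.3 CPM at day 14. The groups did not overlap, as for 24.5% of all genes tested there. Its level fell by 1.34 on the log2 scale (SE 0.23, adjusted p = 0.0373), from 24.3 ± 5.80 (SD, n = 3) to 9.48 ± 1.76 CPM (SD, n = 4). Leaving out replicate 1 or 3 of day 3, or replicate 1, 3 or 4 of day 14, ended this call (adjusted p = 0.0869, 0.147, 0.108, 0.0822 and 0.119), and under the replicate block the adjusted p was 0.332. Nearly all calls of this comparison were lost in the same fits: 177, 0, 2, 0 and 0 genes were called in place of 871, and 0 under the block. Without the nerve it stood at 15.4, 49.1, 30.4 and 30.2 CPM at day 3 and at 12.4, 18.2, 6.07 and 8.88 CPM at day 14. One day 14 rat lay above the lowest day 3 rat, and the level fell by 1.5 on the log2 scale (SE 0.43, adjusted p = 0.0379). This call, too, was lost when replicate 2, 3 or 4 of day 3 or replicate 1, 3 or 4 of day 14 was left out (adjusted p between 0.0636 and 0.0957), under library-total scaling (adjusted p = 0.0702) and under the replicate block (adjusted p = 0.0504).

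Axl, the second receptor for Gas6, stood at 93.0, 268, 96.4 and 183.5 CPM in sensory nerve− rats at day 3 and at 36.6, 68.3, 81.6 and 41.1 CPM at day 14. All 4 day 14 rats were below all 4 day 3 rats, as for 26.7% of all genes tested, a share that also covers the split of Itgam. The level fell by 1.54 on the log2 scale (SE 0.42, adjusted p = 0.0331). Without replicate 2 or 4 of day 3, or replicate 1 or 4 of day 14, the adjusted p was 0.0761, 0.0729, 0.0795 and 0.0856, and under the replicate block it was 0.05, no longer past the threshold. With the nerve, the day 3 values of 179, 67.4 and 109 CPM and the day 14 values of 107, 51.6, 146 and 118 CPM overlapped throughout, and the log2 fold change was -0.14 (SE 0.42, adjusted p = 0.855). Whether the course of Axl depended on the nerve was tested by the interaction of transection and day over the 3 days, which gave an unadjusted p of 0.11 and an adjusted p of 0.998. The ratio of Axl to Mertk within a rat went from 4.73 (range 3.82 to 6.37) at day 3 to 10.9 (range 7.26 to 14.9) at day 14 in sensory nerve+ rats. Without the nerve it was 5.19 (range 3.18 to 6.07) and 6.20 (range 2.95 to 13.5).

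The 250 bases before the start of Itgam, Axl and Mertk, the 3 members called lower in sensory nerve− rats, are shown because their promoters differ in the short motif GAGGAA, the core of the sites of PU.1, a transcription factor that myeloid cells depend on. They are printed 5′ to 3′ on the gene's strand from RefSeq's assembly GRCr8, which is not the build of the count tables, and the capitals mark GAGGAA or its reverse complement TTCCTC, which 23.3% of 33469 rat promoters hold in the same window. Itgam is at chr1:192089342-192089591 (plus strand), Axl at chr1:90424010-90424259 (minus strand) and Mertk at chr3:136392324-136392573 (plus strand).
Itgam: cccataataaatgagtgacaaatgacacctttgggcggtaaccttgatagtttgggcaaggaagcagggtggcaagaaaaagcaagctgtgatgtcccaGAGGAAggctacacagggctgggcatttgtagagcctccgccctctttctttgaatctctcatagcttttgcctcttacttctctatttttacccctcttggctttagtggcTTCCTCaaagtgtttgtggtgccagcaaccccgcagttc
Axl: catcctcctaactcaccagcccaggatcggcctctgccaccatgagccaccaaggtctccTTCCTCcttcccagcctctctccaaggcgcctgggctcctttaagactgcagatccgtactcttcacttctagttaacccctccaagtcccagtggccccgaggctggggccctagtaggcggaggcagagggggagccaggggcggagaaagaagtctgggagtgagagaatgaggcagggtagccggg
Mertk: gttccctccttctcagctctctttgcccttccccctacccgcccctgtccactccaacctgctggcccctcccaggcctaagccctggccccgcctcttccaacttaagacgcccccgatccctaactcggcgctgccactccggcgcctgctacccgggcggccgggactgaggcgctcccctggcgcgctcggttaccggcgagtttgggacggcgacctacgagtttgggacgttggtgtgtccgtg
Itgam held 2 matches, at positions -151 and -39 counted back from the start, Axl 1 at position -190, and Mertk none. The GC share was 48.4% for Itgam, 61.6% for Axl and 68% for Mertk, and its median over all promoters was 51.2%. A match describes the letters only, and binding was not measured.

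Cd36, a receptor for oxidised lipids and dying cells, stood at 93.3, 36.4 and 87.4 CPM at day 3 and at 26.9, 35.8, 23.1 and 44.3 CPM at day 14 in sensory nerve+ rats. All day 14 rats but 1 were below all day 3 rats, and the log2 fold change was -1.13 (SE 0.36, adjusted p = 0.0985 in edgeR and 0.0373 in DESeq2). The sensory nerve− rats had 44.9, 61.1, 64.0 and 131 CPM at day 3 and 33.3, 13.9, 53.7 and 55.1 CPM at day 14, and the change was -1.0 on the log2 scale (SE 0.48, adjusted p = 0.161), or -1.57 with library-total scaling (adjusted p = 0.0325). Cd36 is uncertain in the rat, since RGD1565355, which RefSeq lists as Cd36l1, is a near copy by name and the deposited counts can divide reads between the pair. The copy had the higher level, with means of 222 to 463 CPM over the 6 groups against 32.5 to 75.2 CPM for Cd36, and its day 14 over day 3 log2 fold changes were -0.77 (adjusted p = 0.134) without the nerve and -0.64 (adjusted p = 0.22) with it. Marco, a scavenger receptor of resident macrophages, had a count of 0 in 22 of 23 rats and an estimated 0.95 counts in 1 rat. A count of 0 allows up to 0.160 to 0.202 CPM here, depending on the library and for counting error only.

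The Fc receptor gamma chain passed no test. Fcer1g stood at 214, 188, 131 and 263 CPM at day 3 and at 244.5, 142, 158.5 and 284 CPM at day 14 in sensory nerve− rats. Both groups covered the same range, and the log2 fold change was 0.02 (SE 0.28, adjusted p = 0.973). Scaled by library totals instead, which moved the median of all genes from -0.05 to -0.42 in this comparison, it was -0.39. With the nerve it stood at 283.5, 131 and 225 CPM at day 3 and at 86.7, 249, 71.9 and 137 CPM at day 14, a change of -0.62 on the log2 scale (SE 0.47, adjusted p = 0.421).

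Fcgr2b, the inhibitory Fc receptor, ran from 14.4 to 178.5 CPM over the 23 rats. In sensory nerve+ rats it stood at 178.5, 36.0 and 58.1 CPM at day 3 and at 36.9, 70.8, 26.1 and 53.9 CPM at day 14 (log2 fold change -0.92, SE 0.57, adjusted p = 0.337). One day 3 rat stood far above the other two, and without it the log2 fold change was 0.007. Values without the nerve were 32.0, 28.9, 31.6 and 102 CPM at day 3 and 55.4, 35.2, 34.9 and 65.5 CPM at day 14 (log2 fold change -0.07, SE 0.45, adjusted p = 0.925). A single day 3 rat again stood above the rest, and without it the log2 fold change was 0.57.

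Among the rat counterparts, Fcgr1a, the high-affinity IgG receptor, stood at 197, 60.6 and 103.5 CPM at day 3 and at 24.8, 77.4, 21.8 and 52.8 CPM at day 14 in sensory nerve+ rats (log2 fold change -1.42, SE 0.55, adjusted p = 0.15). Fcgr2a, an activating low-affinity receptor, stood at 396, 128 and 172 CPM at day 3 and at 58.8, 123, 47.6 and 109.7 CPM at day 14, without overlap, as for 24.5% of all genes tested there (log2 fold change -1.43, SE 0.48, adjusted p = 0.112). Without the nerve their log2 fold changes were -0.65 (adjusted p = 0.284) and -0.55 (adjusted p = 0.348). Fcgr3a, the counterpart of mouse Fcgr4, pointed the other way in sensory nerve− rats: it stood at 10.4, 12.2, 9.55 and 11.2 CPM at day 3 and at 24.1, 12.0, 13.3 and 19.7 CPM at day 14. All but 1 of the day 14 rats were above every day 3 rat, and the log2 fold change was 0.63 (SE 0.25, adjusted p = 0.0997). With the nerve it was 0.17 (SE 0.57, adjusted p = 0.869). Fcgr2a is uncertain, since LOC498276, which RefSeq lists as Fcgr2al1, may take some of its reads. The pair correlated with r = 0.994 over 23 rats, and LOC498276 had log2 fold changes of -0.70 (adjusted p = 0.221) without and -1.55 (adjusted p = 0.0934) with the nerve.

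**Figure D2:**
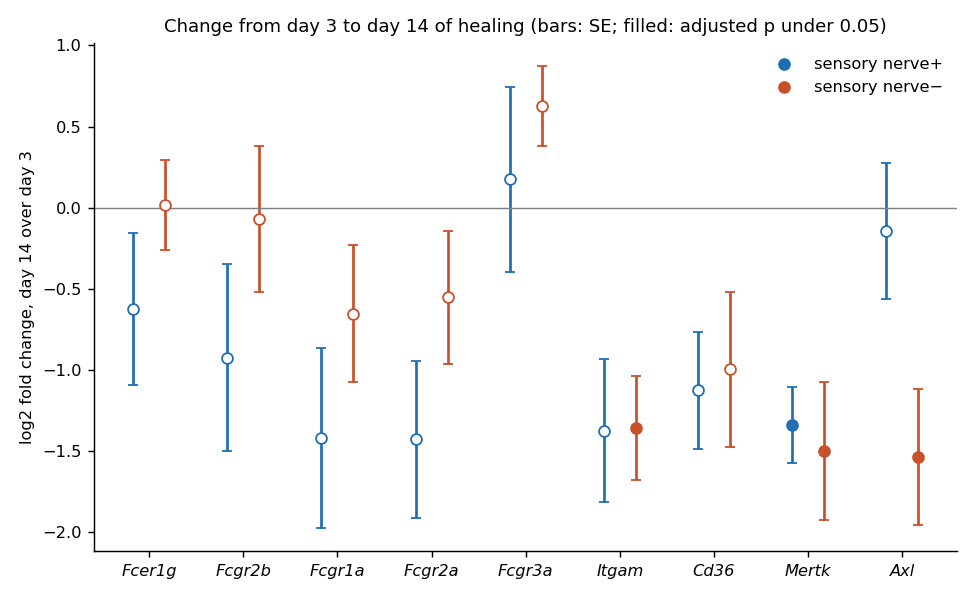
Log2 fold change of day 14 over day 3 (y axis) for each receptor in sensory nerve+ (blue) and sensory nerve− (orange) rats. Points are edgeR estimates, bars their SE, and filled points passed an adjusted p of 0.05. Mertk is filled in both arms, at -1.34 with and -1.5 without the nerve, Itgam and Axl are filled in sensory nerve− rats and open in sensory nerve+ rats by edgeR, and Fcer1g lies at 0.02 in sensory nerve− rats.

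The receptors were also read against Fcer1g in the same rat, as a description with no test. The ratio of Itgam to Fcer1g was 1.34 (range 1.10 to 1.71) at day 3 and 0.505 (range 0.413 to 0.619) at day 14 in sensory nerve− rats. It was 1.35 (range 1.22 to 1.51) and 0.846 (range 0.777 to 1.00) in sensory nerve+ rats. In both arms the ratios of the 2 days did not overlap. As single levels, 26.7% of all genes without and 24.5% with the nerve did not overlap between these days. How many other genes separate as a ratio to Fcer1g was not computed. At day 14 the Itgam ratios of sensory nerve− rats lay below those of all sensory nerve+ rats. The level of Itgam itself had a log2 fold change of -0.08 there (adjusted p = 0.957 in edgeR), and 0.0% of all genes were called. The ratio of Fcgr3a to Fcer1g moved up instead, from 0.0525 (range 0.0383 to 0.0626) to 0.0825 (range 0.0662 to 0.0997) with the nerve, where the days did not overlap, and from 0.0572 to 0.0841 without it.

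**Figure D3:**
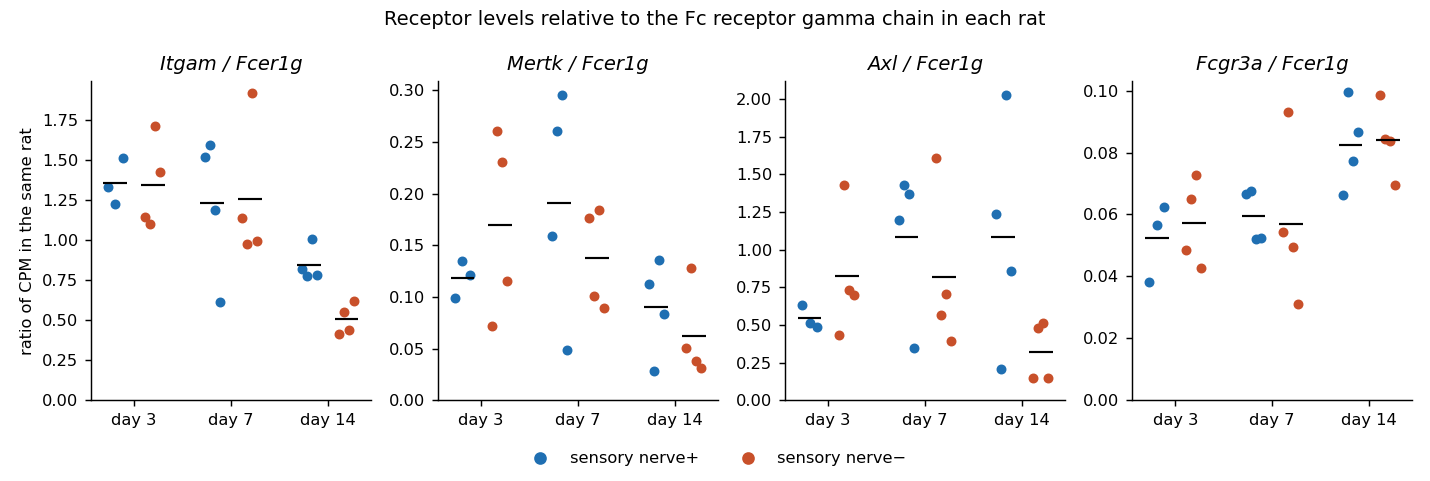
CPM of Itgam, Mertk, Axl and Fcgr3a divided by the CPM of Fcer1g in the same rat (y axis, from 0) at each day; points are rats, bars group means, blue sensory nerve+ and orange sensory nerve−. The mean ratio of Itgam went from 1.34 at day 3 to 0.505 at day 14 without the nerve, and that of Fcgr3a from 0.0572 to 0.0841.

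Markers of other cells moved over the same days. Their counts stand beside 23.5% of all genes called without the nerve and 5.78% called with it. Of the 12 macrophage markers, 1 rose (C1qc) and 1 fell (Cd14) in sensory nerve− rats, and their summed level was 4056 to 7881 CPM at day 3 and 3568 to 7028 CPM at day 14. With the nerve it was 5112 to 8089 CPM and 2267 to 11700 CPM, with 1 marker lower (Cd14). As a share of this sum, Itgam was 3.37% to 5.53% at day 3 and 1.55% to 2.50% at day 14 in sensory nerve− rats, without overlap. How many other genes separate as such a share was not computed. With the nerve Itgam was 3.13% to 4.93% and 1.65% to 3.19% of the sum, with an overlap. The mean share of Axl went from 2.82% to 1.21% without the nerve and from 1.71% to 3.40% with it, and the days overlapped in both arms. The 10 neutrophil markers summed to 62.8 to 913 CPM and 155 to 4654 CPM without the nerve and to 192 to 331 CPM and 89.8 to 7216 CPM with it. Of 9 neutrophil markers tested 2 were called higher without the nerve (median log2 fold change 2.13) and 0 with it (3.73). None of the neutrophil markers was at 0 throughout a rat group, and the part of these cells in the levels of Fcer1g, Fcgr3a and Itgam was not tested. Markers of further cells and tissues moved as well. Skeletal muscle markers were called higher in 7 of 8 with the nerve (median log2 fold change 8.16) and in 4 of 7 without it (4.67), and Schwann cell markers in 3 of 4 with it (5.68) and 0 of 4 without it (-1.06). Without the nerve all 4 T and NK cell markers, 3 of 4 mast cell markers, 2 of 5 osteoclast markers and 2 of 5 endothelial markers were called higher, and 2 of 4 epithelial markers lower (median -5.48), and with the nerve none of these 5 lists had a call by edgeR. The part of these tissues in the levels of the receptors was not tested.

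The other genes of the same pathways did not move as one. These lists were drawn up with earlier results of these data known, and their counts stand beside the 23.5% of all genes called without and the 5.78% called with the nerve between day 3 and day 14. Of 21 Fc receptor signalling genes, 1 rose from day 3 to day 14 in sensory nerve− rats, Pik3cd, a lipid kinase subunit of leukocytes (log2 fold change 1.71, adjusted p = 0.0337), and 17 of 21 estimates were positive. None of the 21 was called with the nerve by edgeR. Of the scavenger receptors, 2 of 14 rose (Scarf1 and Ager) and 3 fell (Msr1, Scarb2 and Mrc1) without the nerve, and 2 of 15 fell with it (Msr1 and Mrc1). Msr1, the class A receptor for modified lipoproteins, fell by 4.05 on the log2 scale (SE 0.37, adjusted p = 0.00159) without the nerve, and with it the change was -4.59 (SE 0.42, adjusted p = 0.0165). Its mean went from 159 ± 67.3 to 9.81 ± 3.36 CPM (SD, n = 4 each) in sensory nerve− rats. The day 14 levels of Msr1 ran from 5.97 to 14.0 CPM, far below its day 3 levels of 113 to 258 CPM. Mrc1, the mannose receptor, fell as well, with log2 fold changes of -1.75 (adjusted p = 0.0353) and -2.66 (adjusted p = 0.0272).

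Of 21 genes of apoptotic cell uptake 1 was called by edgeR between day 3 and day 14, Havcr2 (TIM-3), which was lower in both arms, with log2 fold changes of -2.24 (adjusted p = 0.00536) without and -2.96 (adjusted p = 0.0355) with the nerve. Between day 3 and day 7, 2 of the 21 genes of this list were called higher without and 1 lower with the nerve. Of all genes, 10.5% without and 6.67% with the nerve were called in that step. Gas6, the ligand of Mertk and Axl, was among the genes called higher without the nerve. It stood higher at day 7 in sensory nerve− rats by 1.59 on the log2 scale (SE 0.35, adjusted p = 0.0292), from 124 ± 45.4 to 376 ± 134 CPM (SD, n = 4 each). Time and table cannot be told apart in that step. The day 14 over day 3 values of Gas6, chosen after they were seen, were 1.48 (adjusted p = 0.0773) without and 1.23 (adjusted p = 0.0512) with the nerve. By day 14, 2 of 9 integrin partners and ligands rose without the nerve, a share near that of all genes, the integrin chains Itgad (2.68, adjusted p = 0.0195) and Itgal (1.51, adjusted p = 0.0295), and none was called with it. Of 11 phagosome and oxidase genes 2, the lysosomal membrane proteins Lamp1 and Lamp2, fell without the nerve (log2 fold changes -0.82 and -0.72), and none was called with it. Of the Fc receptor relatives, Trim21, the intracellular IgG receptor, and Fcgrt, the neonatal Fc receptor, rose without the nerve (0.88 and 0.81), as 2 of 9 tested, and 0 of 10 were called with it.

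The single steps carried less. From day 3 to day 7 edgeR called 0 of 6 members in sensory nerve+ rats, against 6.67% of all genes, and 0 of 6 in sensory nerve− rats, against 10.5%. None had an unadjusted p under 0.05 in either arm, as 24.8% of all genes did with and 28.8% without the nerve, and DESeq2 called 0 members as well. Fcgr1a had the largest estimate of this step, -1.55 (SE 0.50, adjusted p = 0.111) in sensory nerve+ rats, with day 7 values of 52.1, 43.8, 16.3 and 48.5 CPM that lay below all 3 day 3 rats, as in 25.4% of all genes. From day 7 to day 14, 0 of 6 were called in each arm by edgeR, against 0.0202% of all genes with and 0.0138% without the nerve. At an unadjusted p under 0.05 there was 1 with the nerve (Mertk) and 3 without it (Axl, Mertk and Itgam), against 9.42% and 23.5% of all genes. Axl stood at 121, 116, 168 and 125 CPM at day 7 without the nerve, above all 4 rats of day 14, as for 12.3% of all genes, a change of -1.22 on the log2 scale (SE 0.28, adjusted p = 0.104 in edgeR). DESeq2 called this 1 member with an adjusted p of 0.00344 and none with the nerve, where it called 10.4% of all genes without and 1.77% with the nerve. Both steps without the nerve compare the separate table of day 7 with the other table, so that time and table cannot be told apart.

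Removing the nerve segment changed none of the 6 tested members past the threshold at any day. The edgeR test called 0 members, and 0.0% of all genes, at day 3, day 7, day 14, over the 3 days together and for the interaction with day. One member, Axl at day 14, had an unadjusted p under 0.05, and DESeq2 also called 0 members in each of these comparisons. The share of all genes at an unadjusted p under 0.05 was 0.83% at day 3, 1.46% at day 7 and 9.32% at day 14.

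At day 7 the 6 estimates were all positive, from 0.15 for Axl to 0.85 for Itgam, with a median of 0.67 where that of all genes was -0.01, and every adjusted p was 1. This was not particular to the members. All 12 macrophage markers (median 0.73), all 21 Fc receptor signalling genes (0.68) and all 11 phagosome genes (0.51) were positive too. So were all 8 tested Fc receptor relatives (0.68) and all 5 osteoclast markers (1.16). Negative were 5 of 7 neutrophil, 3 of 4 mast cell, all 4 T and NK cell, all 5 fibroblast and 7 of 8 skeletal muscle markers. Cd36 stood at 47.7, 53.9, 14.2 and 43.9 CPM with the nerve and at 55.0, 54.0, 83.9 and 64.3 CPM without it. These groups just failed to overlap, as in 0.727% of all genes, and the log2 fold change was 0.69 (SE 0.37). Itgam stood at 239, 182, 56.5 and 112 CPM with the nerve and at 85.8, 200, 456 and 314 CPM without it, with an overlap. The summed macrophage markers ran from 2397 to 7172 CPM and from 3111 to 13690 CPM in these groups, and their part in the estimates was not tested.

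At day 14 the values of Axl were lower without the nerve, at 36.6 to 81.6 CPM, than with it, at 51.6 to 146 CPM, with an overlap (log2 fold change -0.90, SE 0.38, 95% interval -1.78 to -0.01, adjusted p = 0.519). Fcer1g pointed the other way with 0.60 (SE 0.41, adjusted p = 0.609). At day 3 the largest estimate was that of Fcgr2b, -0.91 (SE 0.67, adjusted p = 1), and without the highest sensory nerve+ rat it was 0.03. Over the 3 days the estimates ran from -0.13 for Axl to 0.44 for Fcer1g with adjusted p of 0.866 or more. In that comparison the edgeR estimates of all 21 Fc receptor signalling genes, all 9 integrin partners, all 11 phagosome genes and all 12 macrophage markers were positive, with medians of 0.36, 0.31, 0.21 and 0.37, and none of these genes was called. All tested markers of osteoclasts (5, median 1.15), endothelium (5), B cells (4), T and NK cells (4), erythroid cells (4) and adipocytes (2) were positive too. The remaining lists were mixed or negative. Positive were 14 of 21 estimates of apoptotic cell uptake, 12 of 15 of scavenger receptors and 7 of 10 of Fc receptor relatives. Negative were 6 of 9 neutrophil, 4 of 5 mast cell, all 4 epithelial and all 8 skeletal muscle markers.

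**Figure D4:**
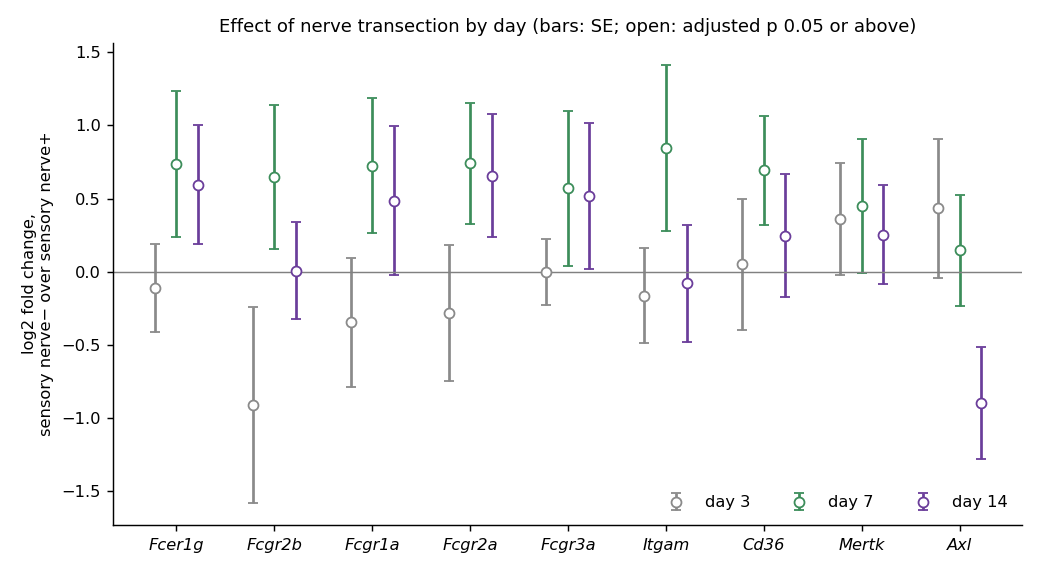
Log2 fold change of sensory nerve− over sensory nerve+ rats (y axis) for each receptor at day 3 (grey), day 7 (green) and day 14 (purple). Points are edgeR estimates and bars their SE; all points are open because no adjusted p was under 0.05. The day 7 estimates of the members lie between 0.15 and 0.85, and Axl at day 14 lies at -0.90.

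In RAW264.7 cells the receptors can be ranked by their level per length of all annotated exons of the gene (TPM). The order depends on that length, which need not be that of the transcripts the cells make. It was 5790 bases for Fcgr2b and 1256 for Fcgr4, whose mean levels under LPS were 30.1 and 29.3 CPM. The gamma chain Fcer1g came first with 1307 ± 40.6 TPM in LPS-stimulated cells (SD, n = 6 for each gene here), followed by Cd36 with 336 ± 7.54, Itgam with 145 ± 5.54, Fcgr1 with 114 ± 5.90 and Fcgr4 with 70.5 ± 1.61 TPM. Fcgr2b with 15.7 ± 0.55, Fcgr3 with 12.6 ± 0.90 and Axl with 5.08 ± 0.31 TPM were lower. The sample ranges of neighbours in this order did not overlap. Mertk had 15 reads over all 11 samples and none in 4 of them, and Marco had 0 reads in every sample, which allows up to 0.0419 to 0.0539 CPM for counting error only. The macrophage line thus lacked detectable Marco and held next to no Mertk, and neither passed the filter on low values.

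The Fc receptor genes Fcgr2b (chr1:170958617-170976547), Fcgr4 (chr1:171018920-171029761), Fcgr3 (chr1:171051174-171064935) and Fcer1g (chr1:171229572-171234365) lie side by side in mm10, and Fcgr1 lies on chr3:96282909-96293969. Their exons are alike enough to bear on the counts. The most alike 120 coding bases of Fcgr2b and Fcgr3 are printed because reads that fall within them can hardly be assigned: they come from exon 5 of Fcgr2b-204 (chr1:170967984-170968103) and exon 3 of Fcgr3-201 (chr1:171057695-171057814), both on the minus strand, and the capital marks the only base that differs.
Fcgr2b: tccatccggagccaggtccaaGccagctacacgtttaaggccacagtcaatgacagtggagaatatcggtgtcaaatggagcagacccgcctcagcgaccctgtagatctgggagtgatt
Fcgr3: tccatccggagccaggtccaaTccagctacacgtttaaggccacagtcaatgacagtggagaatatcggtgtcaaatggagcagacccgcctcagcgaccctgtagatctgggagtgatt
The difference is G22T, counted from 1 at the 5′ end, with the base of Fcgr2b first. In all, 166 stretches of 50 bases occur in both genes, 4.48% of those of Fcgr2b and 10.2% of those of Fcgr3, and none of this length was shared between any other pair of the 5 Fc receptor genes. The best match of the same length between Fcgr2b and Fcgr4 was 73.3% identical. The levels of Fcgr2b and Fcgr3 are uncertain to that extent. Exons of Itgam overlap those of Gm49368, a read-through gene on the same strand, over 68.7% of their bases. Reads on shared exons can be left out of both genes by the counting, Gm49368 itself had 213 to 366 reads a sample against 13572 to 18497 for Itgam, and the level of Itgam is uncertain to that extent. The antisense gene Gm38204 overlaps 2.68% of the exon bases of Fcgr2b and had 0 to 2 reads a sample.

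With CGRP no receptor passed the threshold. None of the 8 members that passed the filter was called by limma, against 0.0222% of all genes (3 of 13492), although 3 had an unadjusted p under 0.05, as did 10.1% of all genes. These 3 were Fc receptors: Fcgr4 and Fcgr1 stood lower, and the inhibitory Fcgr2b higher.

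Fcgr4, an activating receptor for IgG2a and IgG2b, ran from 28.1 to 30.3 CPM with a median of 29.3 in the 6 LPS samples. With CGRP it stood at 28.3, 25.9, 26.3, 25.8 and 25.1 CPM. Only 1 of the 5 CGRP samples reached the range of the LPS samples. The difference was -0.16 on the log2(CPM + 0.5) scale (SE 0.03, 95% interval -0.22 to -0.10), a 10.3% lower level, with an unadjusted p of 4.11e-05 and an adjusted p of 0.0518. It stood on either side of the threshold with the method: the adjusted p was 0.00208 in DESeq2 and 0.0586 in edgeR, both on the recovered reads. Leaving out LPS replicate 6 or CGRP replicate 1 gave 0.0465 and 0.0288.

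Fcgr1, the high-affinity receptor, ran from 92.3 to 106 CPM with a median of 95.6 under LPS and stood at 94.4, 89.4, 92.2, 85.9 and 86.2 CPM with CGRP (difference -0.12, SE 0.03, adjusted p = 0.263). Fcgr2b ran from 28.2 to 31.2 CPM with a median of 30.5 under LPS and stood at 32.1, 30.8, 33.2, 33.2 and 32.2 CPM with CGRP (difference 0.10, SE 0.03, adjusted p = 0.236). In both genes the groups overlapped. The ratio of Fcgr2b to Fcgr4 in a sample was 1.03 (range 1.00 to 1.06) under LPS and 1.23 (range 1.14 to 1.29) with CGRP, and the ratio of Fcgr2b to Fcgr1 was 0.310 (range 0.280 to 0.333) and 0.361 (range 0.340 to 0.387). Neither ratio overlapped between the groups. The ratio of Fcgr2b to Fcer1g did not overlap either, at 0.0748 to 0.0829 under LPS and 0.0848 to 0.0873 with CGRP. Fcgr2b stood higher and Fcgr4 and Fcgr1 lower in these same samples, so that their ratios separate more readily than single levels. How many other gene pairs separate was not computed, and the ratios are a description with no test.

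The other members differed less. Fcer1g ran from 360.1 to 397.5 CPM under LPS and from 363 to 381 CPM with CGRP (difference -0.01, adjusted p = 0.882). Cd36 ran from 388 to 412 CPM and from 389 to 404 CPM (difference -0.01, adjusted p = 0.897), and Itgam from 227 to 255 CPM and from 236 to 259.8 CPM (difference 0.04, adjusted p = 0.694). Those samples covered the same range. Fcgr3 (difference 0.03, adjusted p = 0.878) and Axl (difference -0.04, adjusted p = 0.786) were measured at 6.56 to 7.99 and 7.72 to 9.38 CPM over all 11 samples. No gene of the 6 pathway lists was called by limma, and of the 21 Fc receptor signalling genes 12 estimates were positive and 9 negative with a median of 0.00.

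**Figure D5:**
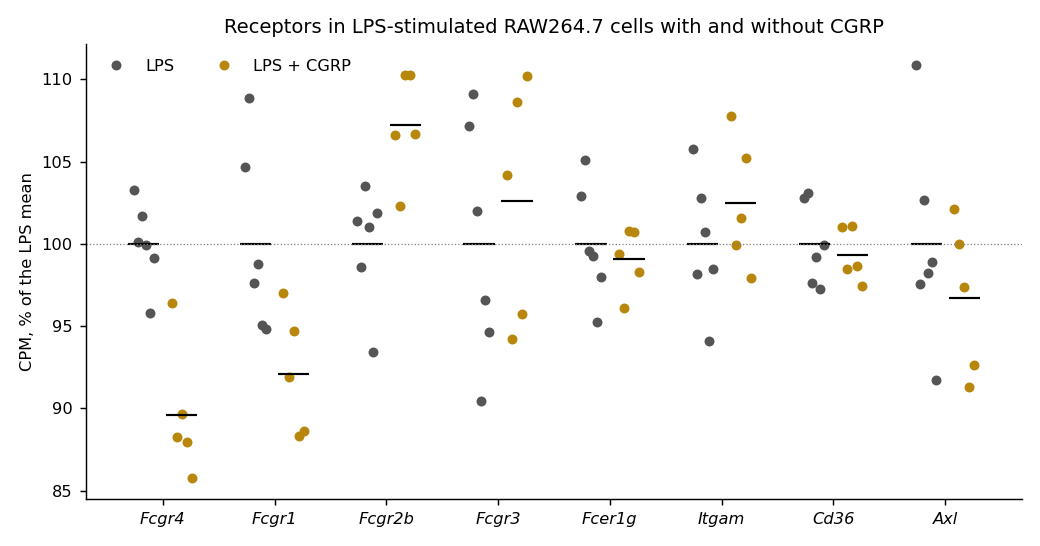
CPM of each receptor as a percentage of its mean in LPS-stimulated RAW264.7 cells (y axis, cut to the range of the data); points are samples, grey LPS alone and yellow LPS with CGRP, and bars are group means. Fcgr4 and Fcgr1 sit below 100% with CGRP and Fcgr2b above, while Fcer1g and Cd36 stay near 100%.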

How the data were processed

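RNA of 23 rat healing tissues and 11 mouse macrophage samples was analysed. The 10 members and the pathway and marker lists were chosen with earlier results of these data known. The authors aligned rat reads with HISAT and Bowtie2 to mRatBN7.2, per the labels, and deposited estimated counts per gene (expected counts, from a counter not given in the sources used here), which were rounded to whole numbers here. For the mouse, the authors trimmed with cutadapt, aligned with STAR to mm10 and counted with featureCounts; the strand setting is not given in the sources used here. The deposited mouse values are a signal, counts divided by 1 factor per run: 100% of the values above 0 were whole reads within 0.05 of a read, and the 2 runs of a sample were summed.

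Rat comparisons used the quasi-likelihood test of edgeR 4.0.16 (R 4.3.3) on the groups compared, with TMM scaling and filterByExpr. The mouse comparison used limma 3.58.1 with a trend on log2(TMM-scaled CPM + 0.5), with TPM from GENCODE vM21 exon lengths, which 99.5% of the mouse genes have. The p-values were adjusted by Benjamini-Hochberg over all genes tested, and a gene was called at an adjusted p under 0.05. The scripts were tested on simulated counts. Named were the members, their rat counterparts, up to 3 genes whose pattern was most like each (a gene among them is not reported here), and in each pathway list up to 2 genes called in each direction; others are said to be chosen after their values were seen. Depth limits the precision, and floors are 3 counts. Alternatives were RLE or library-total scaling, DESeq2 1.42.0, no filter, 1 fit of all rats, a replicate block, pseudocounts of 0.1 and 1, single runs, and leaving out each sample. Of 7 rat genes with a RefSeq promoter among 13 names, 3 are printed.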

Additional observations from a re-analysis of the deposited data

Results flagged for a closer look

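In sensory nerve− rats at day 3, replicate 4 had 155 CPM of Fcgr1a where the other 3 rats had 71.2 to 77.4 CPM. The same rat had 102 CPM of Fcgr2b where the others had 28.9 to 32.0 CPM. Each value stood apart from its group by Dixon's criterion, which was met in 2 of 61 groups of 4 or more samples, where chance alone meets it in about 1 in 20. The rat also had the highest levels of Itgam, Cd36, Fcer1g and Fcgr2a in its group, and without it none of the 6 tested members was called by edgeR between day 3 and day 14 in sensory nerve− rats, as was also the case without replicate 1 of day 14.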

How the results depend on the processing

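Of 74 counts of members called under another setting, 67 stayed within 1.5 times the reported count. With CGRP 1 member (Fcgr4) in place of 0 was called by DESeq2 on recovered reads, by scaling to library totals and under the replicate block. Between day 3 and day 14, DESeq2 called 3 members with the nerve (Mertk, Itgam and Cd36) in place of 1, and the block 1 in place of 3 without the nerve and 0 in place of 1 with it. Between day 7 and day 14 without the nerve DESeq2 called 1 (Axl) in place of 0. The replicate block changed no other count of members called. In no comparison did every pair of same-numbered samples deviate from its group means with a correlation over 0.1. On transection at day 7 the mean correlation was 0.153 for same-numbered and -0.054 for other pairs, and with CGRP 0.043 and -0.009. From day 3 to day 7 without the nerve it was -0.110 and 0.037. Whether the numbers mark pairs is not settled by these values. Leaving out 1 sample gave 0 to 1 members with CGRP, 0 to 3 between day 3 and day 14 without the nerve and 0 to 2 with it, and 0 elsewhere. The causes were not tested. Of 434 log2 fold changes under other settings 403 kept direction and side of the threshold, 5 lost and 7 gained the call, and 19 changed sign, none of a member that had been called.

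Those that changed sign were, with CGRP, Fcgr3 (-0.0016) and Cd36 (0.0046) in run 2 alone and Axl (0.011) in run 1 alone. Under the replicate block they were Fcgr2b (0.101) and Fcer1g (-0.0012) between day 3 and day 14, Fcer1g from day 7 to day 14 (0.078) and from day 3 to day 7 (-0.058), all without the nerve, and Cd36 on transection at day 3 (-0.269). Scaling to library totals turned Fcer1g between day 3 and day 14 without the nerve (-0.394) and, on transection at day 14, Fcgr2b (-0.492), Cd36 (-0.393) and Mertk (-0.0078), where this scaling moved the median of all genes to -0.42 and -0.41. Without a filter, Fcer1g between day 3 and day 14 (-0.024) and Fcgr2b on transection at day 14 (-0.00044) changed sign. Under RLE scaling Fcer1g was 0.0012 between day 7 and day 14, and Itgam 0.019 between day 3 and day 7, where DESeq2 gave 0.013 and a fit of all rats 0.0066, all without the nerve. DESeq2 gave -0.0013 for Fcgr2b on transection at day 14.

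Leaving out 1 sample turned 25 uncalled estimates, each at its lowest and highest as follows. With CGRP it was Fcer1g (-0.027 to 0.0014). Between day 3 and day 14 they were Fcer1g (-0.161 to 0.172) and Fcgr2b (-0.256 to 0.575) without, and Axl (-0.417 to 0.267) and Fcgr2b (-1.30 to 0.007) with the nerve. Between day 7 and day 14 they were Fcer1g (-0.283 to 0.268) and Fcgr2b (-0.399 to 0.263) without, and Axl (-0.368 to 0.152) and Fcer1g (-0.317 to 0.374) with the nerve. Between day 3 and day 7 they were Axl (-0.488 to 0.083), Cd36 (-0.43 to 0.184), Fcer1g (-0.208 to 0.332), Fcgr2b (-0.285 to 0.811), Itgam (-0.411 to 0.283) and Mertk (-0.619 to 0.043) without, and Axl (-0.254 to 0.448) with the nerve. On transection they were Cd36 (-0.343 to 0.271), Fcer1g (-0.35 to 0.146), Fcgr2b (-1.55 to 0.028) and Itgam (-0.443 to 0.061) at day 3, Axl (-0.06 to 0.457) at day 7, Fcgr2b (-0.189 to 0.225), Itgam (-0.414 to 0.278) and Mertk (-0.076 to 0.426) at day 14, and Fcgr2b (-0.213 to 0.26) over the 3 days.

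Counts over all genes moved more. Between day 3 and day 14, DESeq2 called 4925 in place of 3396 genes without and 3409 in place of 871 with the nerve, a fit of all rats 2606 with it, and the block 0. Between day 3 and day 7, DESeq2 called 3224 in place of 1524 without and 2729 in place of 1002 with the nerve, a fit of all rats 2287 without it, and the block 2 and 122. Between day 7 and day 14, DESeq2 called 1991 in place of 2 and 335 in place of 3, a fit of all rats 927 in place of 2, library totals 21 and 13, and the block 0 and 0. On transection DESeq2 called 103 at day 14, 1 at day 7 and 1 over the 3 days in place of 0. With CGRP, DESeq2 called 75, the block 28, library totals 11, run 1 alone 7, edgeR on recovered reads 0 and no filter 2 in place of 3. Library totals called 1184, 547 and 579 genes where 3396, 871 and 1002 were reported: they gave 308 higher and 876 lower genes in place of 1284 and 2112 between day 3 and day 14 without the nerve, 358 and 189 in place of 406 and 465 with it, and 507 and 72 in place of 733 and 269 between day 3 and day 7 with it.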

Other observations

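The genes whose levels were most like each receptor over the 23 rats differed by receptor; the correlations are of log2 CPM, are over whole-tissue libraries of 6 groups that also differ in cell make-up, and carry no p. Fcer1g was most like Nckap1l (r = 0.976), Fermt3 (r = 0.971) and Vav1 (r = 0.968), which are leukocyte genes of the actin, integrin and Fc receptor machinery. Itgam was most like Hk3 (r = 0.946), C5ar1 (r = 0.923) and Mpeg1 (r = 0.921), which are myeloid genes. Fcgr1a went with Adam8 and Tlr2 (r = 0.955 for both after rounding), and Fcgr3a with Inpp5d (r = 0.921). Axl, by contrast, went with Pea15 (r = 0.930) and Gfpt2, and Mertk was most like Yipf1 (r = 0.906), Plxna1 and Lhfpl2. Fcgr2b was most like Clec4a2 (r = 0.898), Ipmk and Ervfrd-1, and Cd36 most like its near copy RGD1565355 (r = 0.907).

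Among the members, Fcer1g correlated with Fcgr1a at r = 0.891 and with Itgam at r = 0.734, and with Axl at r = -0.02. The summed macrophage markers correlated with Fcer1g at r = 0.887, with Itgam at r = 0.793, with Mertk at r = 0.348 and with Axl at r = 0.033. The summed neutrophil markers correlated with Fcgr3a at r = 0.649, with Itgam at r = -0.04, with Mertk at r = -0.60 and with Axl at r = -0.57. All these values are over 23 rats.

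In the 11 macrophage samples Fcgr1 was most like Ube2l6 (r = 0.976), Cd40 (r = 0.966) and Irf7 (r = 0.964), of which Irf7 and Ube2l6 are interferon-induced genes. Fcgr4 was most like Cnp (r = 0.947), Gbp2 and Sdf2l1, Fcer1g most like B2m (r = 0.973), and Fcgr2b most like Rarg (r = 0.940). The nearest genes of Itgam, Cd36, Axl and Fcgr3 were Car5b (r = 0.907), B3galnt1 (r = 0.901), Gpc1 (r = 0.928) and Abcf2 (r = 0.913).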
